A study of Mus musculus with 3 samples.

Results

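The genes described here make, package or take up transmitters other than dopamine: the vesicular glutamate transporters *Slc17a6* (VGLUT2), *Slc17a7* (VGLUT1) and *Slc17a8* (VGLUT3), the vesicular GABA transporter *Slc32a1* (VGAT), the glutamate decarboxylases *Gad1* (GAD67) and *Gad2* (GAD65), choline acetyltransferase *Chat*, the vesicular acetylcholine transporter *Slc18a3*, tryptophan hydroxylase 2 *Tph2*, and the serotonin transporter *Slc6a4*. For each of these 10 genes, all found in GENCODE M21, the accessible peaks that overlap the gene body or lie within 50 kb of it were collected from the peak list of dopaminergic neurons (DNs). This gave 33 of the 55326 peaks in the list. The list comes from single-nucleus ATAC-seq, in which a transposase cuts accessible DNA and each fragment carries the barcode of its nucleus. Nuclei came from the midbrain ventral tegmental area (VTA) of wild-type male C57Bl/6Nl mice, in 1 library from 7-week-old and 1 from 9-week-old tissue, and no gene had been altered or treatment given. The DN cluster was chosen by the authors from its gene score for *Th* and checked with other DN markers, and both libraries were pooled in 1 list of positions. Mouse ES cells, also part of the series, were not analysed here.

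A neuron releases the transmitter that its vesicles are loaded with, so the vesicular transporter is the gene that defines transmitter identity, together with the enzyme that makes the transmitter. Some DNs of the VTA are known to release glutamate as well as dopamine, and they use VGLUT2 for it. DNs are also reported to release GABA, and have been proposed to load it without VGAT and to make it largely without the GAD enzymes. Serotonergic neurons of the raphe and cholinergic neurons of the brainstem and forebrain are separate cell types.

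The list has no score, height or read count per peak, so that its depth cannot be read from it, no value has a spread between replicates, and no test between genes was possible. An absent peak means that none was called at the depth of these nuclei, and weak accessibility was not detectable. A peak present in every nucleus and a peak of a subset of nuclei cannot be told apart. Distances to a peak are to its centre unless its start or end is named. Coordinates are in mm10, counted from 1, with starts in the list read as counted from 0.

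Sequences of the regions on which the results turn are given from GRCm38 (the assembly of mm10), 5′ to 3′ on the strand of the gene, with CG dinucleotides in capitals. CG dinucleotides are scarce in most of the mouse genome and dense in CpG islands, which hold many promoters. The first 6 come from peaks. They are 150 bases of the peak over the *Slc17a6* transcription start site (TSS), upstream of the start (chr7:51621680-51621829, plus strand), and the central 100 bases of the nearest peaks of *Slc6a4* (chr11:76997441-76997540, plus), *Slc17a7* (chr7:45162300-45162399, plus), *Slc17a8* (chr10:89630223-89630322, minus) and *Chat* (chr14:32473098-32473197, minus) and of the *Gad1* intron peak (chr2:70592552-70592651, plus). The last 2 are promoters without a peak, 200 bases upstream of *Gad2* (chr2:22622005-22622204, plus) and 100 bases upstream of *Slc18a3* (chr14:32464851-32464950, minus).
Slc17a6: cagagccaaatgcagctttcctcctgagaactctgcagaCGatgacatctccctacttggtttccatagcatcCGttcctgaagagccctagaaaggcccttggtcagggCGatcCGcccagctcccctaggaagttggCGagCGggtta
Slc6a4: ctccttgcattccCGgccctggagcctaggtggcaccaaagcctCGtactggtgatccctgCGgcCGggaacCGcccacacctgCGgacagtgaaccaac
Slc17a7: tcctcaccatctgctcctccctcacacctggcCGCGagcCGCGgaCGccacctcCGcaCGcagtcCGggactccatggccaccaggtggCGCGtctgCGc
Slc17a8: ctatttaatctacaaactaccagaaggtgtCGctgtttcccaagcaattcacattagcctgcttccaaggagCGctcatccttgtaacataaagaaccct
Chat: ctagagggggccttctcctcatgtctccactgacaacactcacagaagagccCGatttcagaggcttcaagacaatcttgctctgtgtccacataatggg
Gad1: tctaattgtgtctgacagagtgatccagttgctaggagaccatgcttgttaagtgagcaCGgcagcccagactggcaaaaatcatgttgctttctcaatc
Gad2: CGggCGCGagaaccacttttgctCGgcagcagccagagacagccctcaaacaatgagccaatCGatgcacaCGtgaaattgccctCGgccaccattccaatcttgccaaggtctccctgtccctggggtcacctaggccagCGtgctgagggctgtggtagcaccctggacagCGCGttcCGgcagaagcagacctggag
Slc18a3: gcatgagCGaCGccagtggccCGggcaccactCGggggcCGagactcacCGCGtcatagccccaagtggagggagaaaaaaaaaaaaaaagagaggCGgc
The *Gad2* stretch, with no peak, holds 11 CG dinucleotides in 200 bases up to the TSS. The *Slc17a6* stretch, inside a peak, holds 6 in 150 bases and ends upstream of the annotated TSS, so the counts are not directly comparable. The centre of the *Slc17a7* peak holds 11 and that of the *Chat* peak 1.

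*Slc17a6*, *Slc32a1* and *Tph2* were the members with a peak at a TSS, defined as a peak centre within 1 kb of the start of a basic GENCODE transcript. These are 3 of 10 genes, whereas 56.4% of the 21755 protein-coding genes had such a peak. Peaks within the gene body were called in 5 of 10 members (*Slc17a6*, *Slc32a1*, *Gad1*, *Chat* and *Tph2*), against 63.8% of all protein-coding genes. All 10 had at least 1 peak within 50 kb, as did 83.2% of all protein-coding genes. Because longer genes have more room for peaks, the 7 members of 30 to 110 kb were also set beside genes of that length. Of these members, 4 had a peak in the gene body, and 81.0% of the 5445 genes did. *Slc17a8*, *Gad2* and *Slc6a4* had neither a TSS peak nor a peak in the gene body, a state shared by 18.3% of genes of this length. *Slc6a4* and *Slc17a7* were just outside the limit of 1 kb, with peak centres 1112 and 1599 bp upstream of the TSS.

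**Figure D1:**
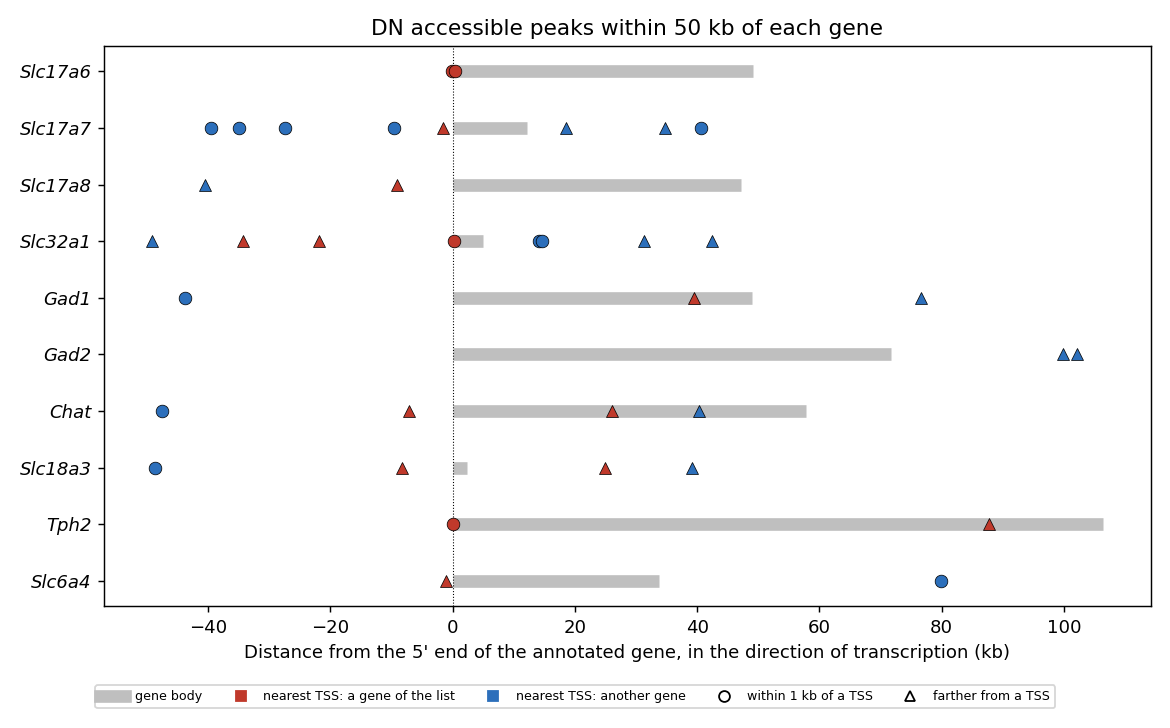
Positions of accessible peaks around the 10 genes. The x axis gives the distance of each peak centre from the 5′ end of the annotated gene in kb, along the direction of transcription, and each row is a gene with its body in grey. Red marks have a listed gene as the gene with the nearest TSS and blue marks another protein-coding gene, circles lie within 1 kb of a TSS and triangles farther away. Only *Slc17a6*, *Slc32a1* and *Tph2* have a red circle, and the row of *Gad2* is empty over the gene.

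Among the 3 vesicular glutamate transporters, only *Slc17a6* had an accessible TSS. *Slc17a6* (ENSMUSG00000030500, chromosome 7, 51622006 to 51671119, plus strand) is 49.1 kb long. Of its 2 peaks, the first, from 51621595 to 51622094, covers the TSS with its centre 161 bp upstream. The second, from 51622110 to 51622609, begins after a gap of 15 bp and is centred 354 bp downstream. No other peak was called in the gene or within 50 kb of it. A gene with 2 or more peaks within 1 kb of a TSS is not rare, since 21.3% of protein-coding genes have this.

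*Slc17a7* (ENSMUSG00000070570), the main transporter of cortical and hippocampal glutamate neurons, is 12.2 kb long (chromosome 7, 45163949 to 45176142, plus strand). No peak was called in the gene, but 8 lay within 50 kb of it. Only 1 of these, from 45162100 to 45162599, has *Slc17a7* as its nearest gene, and it ends 1350 bp before the annotated start. The others include peaks at the TSSs of *Rpl13a*, which encodes a ribosomal protein, and of *Flt3l*, *Pih1d1* and *Ccdc155*. *Slc17a7* shared with *Slc32a1* the highest count in a 100 kb window around the 5′ end, 8 peaks, without an accessible TSS of its own.

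*Slc17a8* (ENSMUSG00000019935), a transporter found in some serotonergic, cholinergic and GABAergic neurons, is 47.2 kb long (chromosome 10, 89574020 to 89621253, minus strand). Both of its basic TSSs lacked a peak. The nearest peak, from 89630023 to 89630522, is centred 9.02 kb upstream of the outer TSS. A second peak, 40.5 kb upstream, lies in an intron of a neighbouring gene, and its nearest TSS is that of *Scyl2*. Between the nearest peak and the next one on the side of the gene, 167.8 kb held no peak.

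Of the 3 genes of GABA synthesis and packaging, only the transporter gene had a TSS peak. *Slc32a1* (ENSMUSG00000037771, chromosome 2, 158610767 to 158615748, plus strand) is 4.98 kb long and had a peak from 158610767 to 158611266. This peak starts at the annotated TSS itself and covers the start of the gene, with a GC content of 73.0% and an observed to expected CpG ratio of 0.91, the highest GC content among the 33 assigned peaks. Within 50 kb, 2 peaks without another protein-coding TSS nearer were centred 21.9 and 34.3 kb upstream. They are slightly nearer to a lncRNA gene, *Gm14204*, than to *Slc32a1*. Of the remaining 5 peaks, 2 lie at the TSS of *Actr5*, which encodes an actin-related chromatin remodelling protein.

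*Gad1* (ENSMUSG00000070880) makes most of the GABA of GABAergic neurons. The gene is annotated on chromosome 2 (70553072 to 70602014, plus strand, 48.9 kb), with basic TSSs at 70562042, 70562196 and 70562899. None of these had a peak, and the nearest peak, from 70592352 to 70592851, is an intronic peak 29.7 kb downstream of the last of them. This is the single peak in the gene. It has a GC content of 46.6% and a CpG ratio of 0.30, and it lies 29.2 kb from the TSS of the antisense transcript *Gad1os*. The other 2 peaks within 50 kb are at the TSS of *Erich2* and between *Gad1* and *Gorasp2*.

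*Gad2* (ENSMUSG00000026787), the decarboxylase that supplies synaptic vesicles, had the largest distance to a peak of the 10 genes. The gene is 71.7 kb long (chromosome 2, 22622205 to 22693874, plus strand), and neither the gene nor 50 kb upstream of it held a peak. Its 2 peaks lie downstream and start 27.9 and 30.3 kb past the end of the gene. Their centres are 99.8 and 102.2 kb from the TSS, and the nearest TSS to both is that of *Apbb1ip*. The 5′ end of *Gad2* lies in a stretch of 466.3 kb without a called peak.

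The cholinergic genes *Chat* and *Slc18a3* form 1 locus, in which *Slc18a3* sits inside the gene body of *Chat* on the same strand, so that their 4 assigned peaks are the same. *Chat* (ENSMUSG00000021919, chromosome 14, 32408203 to 32465989, minus strand) is 57.8 kb long and *Slc18a3* (ENSMUSG00000100241, 32462438 to 32464850) 2.41 kb. Neither had a peak at its TSS. Within *Chat*, intronic peaks were called from 32425370 to 32425869 and from 32439700 to 32440199, and the nearest peak to either TSS, from 32472898 to 32473397, is centred 7.19 kb upstream of *Chat* and 8.30 kb upstream of *Slc18a3*. The fourth peak is at the TSS of *Ercc6*, a DNA repair gene. The 3 peaks not at *Ercc6* have GC contents of 46.8, 49.2 and 50.6%, and CpG ratios of 0.11, 0.13 and 0.19.

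Of the serotonin genes, *Tph2* had an accessible TSS and *Slc6a4* a peak just upstream. *Tph2* (ENSMUSG00000006764), the enzyme that sets serotonin synthesis in the brain, is the longest of the 10 genes, at 106.4 kb (chromosome 10, 115078641 to 115185022, minus strand). A peak from 115184696 to 115185195 covers its TSS, with the centre 76 bp downstream, the shortest distance from a TSS to a peak among the members. It had a CpG ratio of 0.36, below those of the other member TSS peaks. A second peak, from 115097103 to 115097602, is intronic and 87.7 kb downstream of the TSS. *Slc6a4* (ENSMUSG00000020838, chromosome 11, 76998603 to 77032340, plus strand), which takes serotonin back up into the neuron, is 33.7 kb long and had no peak in the gene. Its nearest peak, from 76997241 to 76997740, ends 863 bp before the annotated start. Its other assigned peak is at the TSS of *Nsrp1* and starts 45.9 kb beyond the end of *Slc6a4*.

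Most genes with a CpG-rich promoter had a TSS peak in the list, so the members were also read by the CpG content of their own promoters. Here CpG-rich means a GC content above 50% and an observed to expected CpG ratio above 0.6 in 1 kb around the 5′ end. By this rule 5 members were CpG-rich, and 2 of them had a TSS peak, whereas 88.2% of the 9736 CpG-rich genes had one. *Slc17a6* and *Slc32a1* had the peak, and *Gad2*, *Slc18a3* and *Slc6a4* did not. *Slc17a6* passed this rule narrowly, with a ratio of 0.61. The annotated 5′ end of *Gad1* lies upstream of its basic TSSs, which are themselves CpG-rich, with ratios from 0.68 to 0.75. When any basic TSS was used, a choice made after the data were seen, *Gad1* joined the group, and 2 of 6 CpG-rich members had a TSS peak beside 88.7% of 10786 genes. Of the other 4 members 1 had a TSS peak, beside 24.6% of the remaining genes. Of the members without a CpG-rich 5′ end, 1 of 5 had a TSS peak, *Tph2*, beside 30.6% of 12019 genes.

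The distance from a TSS to the nearest peak gives an order without a limit. Members with a TSS peak come first in it by definition, since the starts and peak centres are the same. The distance was 76 bp for *Tph2*, 161 bp for *Slc17a6* and 250 bp for *Slc32a1*, at or below the median of 252 bp over all protein-coding genes. It was 1112 bp for *Slc6a4*, 1599 bp for *Slc17a7*, 7.19 kb for *Chat*, 8.30 kb for *Slc18a3* and 9.02 kb for *Slc17a8*. *Gad1* with 29.7 kb and *Gad2* with 99.8 kb were above the upper quartile of all genes, 26.8 kb. Of all protein-coding genes, 23.9% were as far from a peak as *Gad1* or farther, 13.2% as far as *Gad2*, 35.2% as far as *Slc18a3* and 43.4% as far as *Slc6a4*. Among the 10786 genes with a CpG-rich basic TSS, a grouping made after the data were seen, these shares were 5.11% for *Gad1*, 1.35% for *Gad2*, 9.03% for *Slc18a3* and 11.2% for *Slc6a4*. For the CpG-rich members with a TSS peak they were 19.3% for *Slc32a1* and 26.4% for *Slc17a6*. These shares describe 1 pooled list and carry no p-value.

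**Figure D2:**
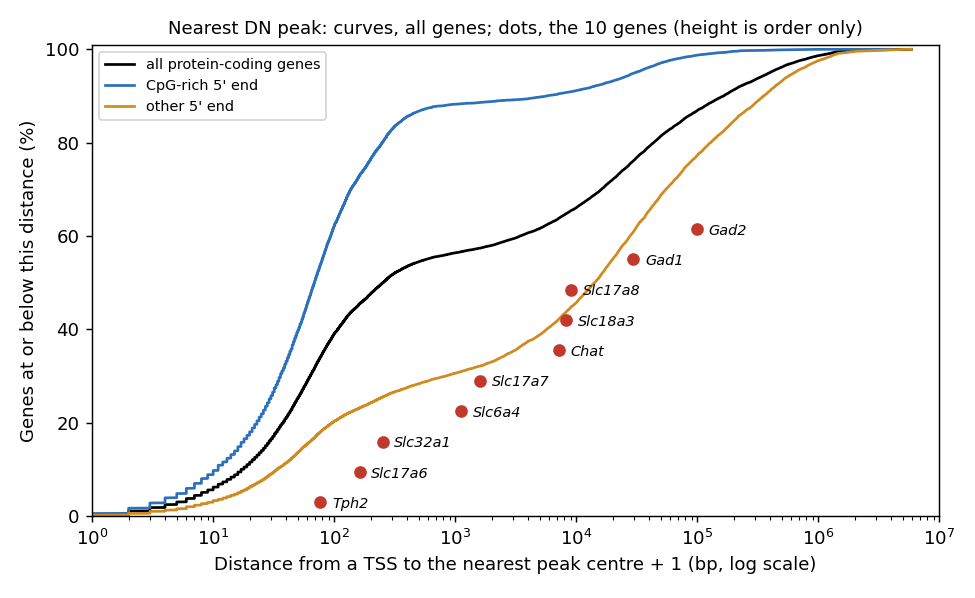
Distance from a TSS to the nearest accessible peak. The x axis gives the distance in bp plus 1 on a log scale, the curves give the percentage of all, CpG-rich and other protein-coding genes at or below each distance, and each red dot is 1 of the 10 genes, whose height shows only their order. *Tph2*, *Slc17a6* and *Slc32a1* sit at 76 to 250 bp, while *Gad1* and *Gad2* sit at 29.7 and 99.8 kb, where the curve of CpG-rich genes is nearly flat. The curves split genes by their annotated 5′ end, by which *Gad1* belongs to the other genes.

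A window of 100 kb around the 5′ end sets genes of unequal length side by side. *Slc17a7* and *Slc32a1* held 8 peaks each (percentile 79.6 among all protein-coding genes), *Chat* and *Slc18a3* held 4 each (57.9), and *Slc17a6*, *Slc17a8* and *Gad1* held 2 each (36.9). *Tph2* and *Slc6a4* held 1 each (25.0) and *Gad2* held none (9.47). The median over all genes was 3 peaks, with 4 members above and 6 below it. The window count and the TSS did not go together in every member, since *Tph2* and *Slc17a6* had an accessible TSS with few peaks around it and *Slc17a7* the reverse.

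Of the 33 assigned peaks, 20 were nearer to the TSS of another protein-coding gene than to that of a member. Promoter peaks made up 14 of the 33 (42.4%, 95% exact binomial confidence interval 25.5 to 60.8%, counting error only), of which 4 belonged to members and 10 to 9 neighbouring genes. Over all peaks the share was 30.1%. Introns held 6 peaks (18.2%, interval 6.98 to 35.5%) and 37.5% of all peaks, and intergenic sequence held 13 (39.4%, interval 22.9 to 57.9%) and 26.6% of all peaks. The peaks were collected by their position around the genes and come from 9 loci, so these shares partly follow from the selection and no difference is read from them. Exons away from promoters held 0 of 33, which by the same interval allows a share of up to 10.6%, against 5.74% of all peaks. The 19 peaks away from promoters, 9 of them with a member as the nearest gene, had a median GC content of 49.2% and a median CpG ratio of 0.20, and all such peaks in the list had medians of 49.4% and 0.24. The 4 promoter peaks of members had CpG ratios from 0.36 to 0.91 and the 10 of neighbouring genes from 0.49 to 1.08, which overlap.

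**Figure D3:**
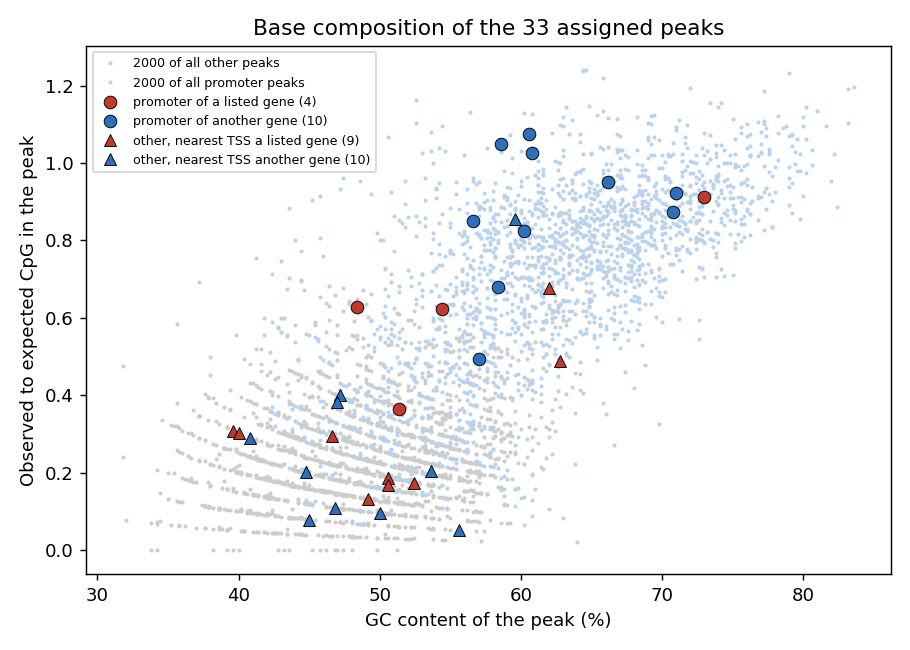
Base composition of the assigned peaks. The x axis gives the GC content of each 500-bp peak in percent and the y axis its observed to expected CpG ratio, for the 33 assigned peaks and, as small dots, a random draw of promoter peaks and of other peaks from the list. Promoter peaks of neighbouring genes lie between 0.49 and 1.08, whereas the peaks away from promoters have a median ratio of 0.20, and the peak at *Tph2* is the promoter peak with the lowest ratio, 0.36.

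Sequence words were searched on both strands of the 33 peaks to describe what they hold. The forkhead word TGTTTAC was in none of them and in 7.22% of all peaks, and the word AAAGGTCA, the element bound by NR4A receptors such as NURR1, in none and in 4.0% of all peaks. The cyclic AMP element TGACGTCA was also in none, and in 1.51% of all peaks. The homeodomain word TAATTA was in 3 peaks (7.27% of all), the AP-1 word TGANTCA in 4 (12.3%) and the E-box CAGATG in 6 (32.2%). These words do not contain one another, and TAATTA, TGACGTCA and TGANTCA (N is any base) read the same on both strands. The core word of the CTCF motif was in 1 peak, at the TSS of *Rpl13a*, and in 1.79% of all peaks. TAATTA and CAGATG occurred together in the second intronic peak of *Chat* and in the intronic peak of *Tph2*. All 4 peaks with the AP-1 word were nearer to the TSS of another gene (*Flt3l*, *Scyl2* or *Apbb1ip*) than to that of a member. With 33 peaks, a word held by few peaks of the list is not detectable as more or less frequent.

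The 2 parts of RE1, the element bound by the repressor REST (also called NRSF), which silences neuronal genes outside neurons, were searched as separate words. The left part TTCAGCACC was in 2 of the 33 peaks, at the TSSs of *Tph2* and of the neighbour *Actr5*, and in 0.804% of all peaks. The right part, seen in capitals at the 3′ end of the *Tph2* match, was in 1 and in 0.278%. The *Tph2* TSS peak held both, on the strand of the gene, in the 5′ UTR from 8 to 34 bp downstream of the TSS (chr10:115184988-115185014), separated by 8 bases instead of the usual 2. Joining the parts into 1 element was done after the data were seen. *Gad1* has both parts with the usual spacing, centred 2334 bp upstream of its first basic TSS on the minus strand (chr2:70559698-70559718), outside any peak, with the centre of the nearest one 32.9 kb away. In a search that allowed up to 3 mismatches in the 19 fixed bases, added after the data were seen, further matches near members lay 1835 bp upstream of *Chat* (chr14:32467782-32467802) and 26.0 kb upstream of *Slc32a1* (chr2:158584787-158584807), both on the minus strand and neither in a peak. These 4 matches are printed 5′ to 3′ on the strand of the match, with the RE1 parts in capitals and the bases between them in lower case.
Tph2: TTCAGCACCagggttctGGACAGCGCC
Gad1: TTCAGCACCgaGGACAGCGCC
Chat: TCCAGCACCacGGACAGTTCC
Slc32a1: GTCAGAACCaaGGACAGCGCT
Counted from 1 at its 5′ end, the *Chat* match differs from the RE1 word by T2C, C18T and G19T, and the *Slc32a1* match by T1G, C6A and C21T. A match is a description of the sequence and not evidence of binding.

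Other genes of the same pathways, from a list fixed with earlier results of these data known, were mostly accessible at the TSS. Of 27 such genes, 19 had a TSS peak (70.4%), beside 56.4% of all protein-coding genes. For glutamate this was 9 of 10, including *Slc1a1* (a neuronal glutamate transporter) and *Glud1* (glutamate dehydrogenase), and the exception was *Slc1a3*, a glutamate transporter of astrocytes, with the centre of its nearest peak 75.0 kb away. Other listed genes with high expression in astrocytes did have a TSS peak, namely the glutamate transporter *Slc1a2* (9 peaks in the gene), glutamine synthetase *Glul* (3 peaks) and the GABA transporter *Slc6a11* (2 peaks). For GABA it was 6 of 7, including *Abat* (GABA transaminase, which breaks GABA down, 6 peaks in the gene) and *Aldh1a1* (an aldehyde dehydrogenase proposed to make GABA in DNs, 3 peaks), and not *Slc6a13*. *Abat* thus had an accessible TSS, while *Gad1* and *Gad2* had no TSS peak. For acetylcholine it was 2 of 4, with *Ache* (acetylcholinesterase, 7 peaks in the gene) and *Slc44a1*, and without *Slc5a7*, the high-affinity choline transporter, and *Bche*. For serotonin it was 2 of 6, *Maoa* and the receptor gene *Htr1a*, and not *Tph1*, *Htr1b*, *Maob* or *Fev*, the transcription factor of serotonergic neurons, whose nearest peak was 4.34 kb away.

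Genes of dopamine synthesis, storage and clearance are the nearest comparison within the same nuclei. All 6 genes listed, among them *Th*, *Ddc*, *Slc6a3* and *Slc18a2*, had a TSS peak (56.4% of all protein-coding genes), with 2 to 18 peaks in the gene body and a median of 6. The 10 members had 0 to 2 peaks in the gene body, and the median over all protein-coding genes was 1, or 2 for genes of 30 to 110 kb. *Ddc*, the decarboxylase shared by dopamine and serotonin synthesis, had 18 peaks, and *Slc18a2*, the vesicular monoamine transporter that both systems use, had 8. The DN cluster was chosen by its gene score for *Th* and checked by the authors with *Slc6a3* and other markers, so that the accessibility of these genes is not independent of that choice.

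The label of the nuclei was checked with marker genes. All 10 DN markers had a TSS peak (56.4% of all protein-coding genes), but the cluster was chosen by *Th* and checked by the authors with *Slc6a3*, *Lmx1b*, *Foxa1* and *Foxa2*, so these 5 are no independent check. None of 5 midbrain GABAergic selector genes (*Gata2*, *Gata3*, *Tal1*, *Sox14*, *Six3*) or 3 cholinergic ones, among them *Isl1* and *Lhx4*, had a peak at a TSS or in the gene. Among 3 serotonergic markers *Htr1a* had a TSS peak, and *Fev* and *Gata3* had none. *Mbp* had a TSS peak among 4 oligodendrocyte lineage markers, and none of 3 astrocyte and 3 microglia markers had one, although *Gfap*, *Aldh1l1* and *Cx3cr1* had 2, 5 and 9 peaks in the gene body. The annotated lengths of *Gfap*, *Aldh1l1* and *Cx3cr1* are 13.6, 113.8 and 168.3 kb, and *Mbp*, at 110.5 kb, had 6 peaks in the gene body. Of all protein-coding genes, 63.8% had a peak in the gene body. The part of other cell types in the peaks at *Slc17a6*, *Slc32a1* and *Tph2* was not tested beyond these counts. No markers of glutamatergic neurons were listed, so none of the counts bears on such cells at *Slc17a6*.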

How the data were processed

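The data were called peaks from snATAC-seq of the mouse midbrain VTA, from 2 libraries. The authors mapped reads to mm10 with Cell Ranger, removed doublets and low-quality nuclei and clustered nuclei with ArchR, and then called peaks on pseudobulk replicates of the DN cluster, merging overlapping peaks iteratively. The deposited list holds the chromosome, start and end of 55326 peaks, each 500 bp wide, with both libraries pooled and without a score or count, so the depth behind a single peak cannot be read from it. Read-level and signal data of the libraries were not used here. The paper describes a later filter on the share of nuclei with a peak, and does not say whether it applies to this list. If starts were counted from 1, peaks would be 501 bp wide.

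The members and the gene lists were chosen with earlier results of these data known. All 10 members are described, neighbours are named where a result turned on them, and pathway genes by counts. Some listed genes enter the counts and are not reported here by name. Genes came from GENCODE M21 (basic set) and sequence from GRCm38 (RefSeq copy), which has the chromosomes of mm10. A peak was counted for a gene at an overlap of at least 1 bp, and for a TSS when its centre lay within 1 kb. Shares over all protein-coding genes on the 19 autosomes and X stand beside the members' counts, as descriptions. RefSeq starts were found for 10 of 10 members. Intervals are 95% exact binomial and cover counting error only. Counting and word searches were tested on simulated data. Tools were pysam 0.24.0, pandas 2.3.3, numpy 2.4.6, matplotlib 3.10.9 and scipy 1.17.1 under Python 3.11.15.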

Additional observations from a re-analysis of the deposited data

How the results depend on the processing

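The 3 members with a TSS peak became 5 within 2 kb of a TSS, because *Slc6a4* and *Slc17a7* joined (58.0% of all protein-coding genes at 2 kb), and 4 when any overlap with 1 kb around a TSS was counted (56.9%). They stayed at 3 within 250 bp (50.0% of all protein-coding genes), with all transcripts (58.1%) and with RefSeq starts, for which the share of all genes was not computed. The 5 members with a peak in the gene body became 7 of 10 when 2 kb upstream were added, with 65.2% of all protein-coding genes at this setting. The 33 assigned peaks became 16 within 20 kb and 60 within 100 kb. The median percentile of the members' window counts was 36.9 for 100 kb, 37.0 when peaks were counted by their centre, 48.4 for 20 kb and 29.4 for 200 kb. Peaks with any of the 9 words fell from 12 (36.4%, with 51.8% of all peaks) to 6 (18.2%, with 32.8% of all peaks) when only the central 250 bp were searched. The median distance from a TSS to a peak over the members was 4395 bp, and 4379 bp from the 5′ end of the gene. The 100 kb window with all transcripts was not run, since the annotated gene ends are the same in both sets. Starts counted from 1, RefSeq starts, the distance to the nearest peak, CpG content at any TSS and the joined RE1 element, with and without mismatches, were added after the data were seen, while the separate RE1 words were listed earlier. No paired analysis was possible because both libraries are pooled in the 1 list used here, which also prevents leaving out a replicate.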

Other observations

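The left and right parts of RE1, in this order on 1 strand with up to 20 bases between them, occurred at 25 places on the autosomes and X. Of these, 8 lay inside a DN peak. With 8 bases between the parts, as in the 5′ UTR of *Tph2*, there were 3 places including *Tph2* itself, and all 3 lay in a peak. With 0 bases the 1 place lay in a peak and with 1 base the 1 place did not. With 7 bases 0 of 3 places lay in a peak, with 9 bases 1 of 2 and with 10 bases 1 of 3. The spacing of 8 was singled out because *Tph2* has it, and the *Tph2* match was itself found by searching inside peaks. With 2 bases there were 12 places, the one near *Gad1* among them, and 2 lay in a peak. When up to 3 mismatches were allowed at the spacing of 2 bases, 98 of 1296 places (7.56%) lay in a peak. The places are few, and this search was added after the data were seen.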
